A study of Mus musculus with 16 samples.

Results

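The odorant receptors of mouse chromosome 9 were followed across sorted olfactory cells of mice that met citrus accord or clean air. They were taken as the probe sets placed on chromosome 9 by their identifiers whose symbol is Olfr and a number, without pseudogenes and without Olfr151 and Olfr160, 2 receptors that were left out by the rule. This gave 128 receptors of 1080 with such a symbol in the table, of which 951 are not on chromosome 9 and the remaining 1 is Olfr160. In all 19572 probe sets with a gene symbol were tested. In gene order the 128 receptors lie in 2 clusters, split at a gap of over 1 Mb: a proximal one of 35 receptors and a distal one of 93. The gene table gives each a MOR family number, by which they belong to 29 families, 15 in the proximal and 14 in the distal cluster, with 0 families in both.

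Odorant receptors are G protein-coupled receptors in the cilia of olfactory sensory neurons (OSNs). A mature OSN expresses a receptor from just 1 allele of 1 receptor gene, so in a bulk sample the level of a receptor's mRNA depends on how many neurons chose it as well as on how much mRNA each holds, and fewer cells of a type and less RNA per cell cannot be told apart here. Receptor genes sit in tandem arrays on many chromosomes, and receptors of a family are close relatives that arose by duplication. S100a5 encodes a calcium-binding protein that OSNs express with activity.

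All groups were S100a5-tauGFP mice, whose GFP reporter is tied to S100a5, of both sexes and 7 to 12 weeks old. Each mouse spent 40 h in a chamber with an air flow of 3.1 L/min, and after 26 h it met a pulse of 10 s every 20 min. Pulses were citrus accord at 100% or, as vehicle, filtered air. The dissociated olfactory mucosa was sorted by fluorescence, and each of the 16 arrays held cells of 3 mice pooled (24 mice). There were 4 groups with n = 4 arrays each: GFP-positive and GFP-negative cells of citrus mice, and GFP-positive and GFP-negative cells of vehicle mice. Below, a gene called higher or lower in both gates, or in each or neither, refers to GFP-positive against GFP-negative cells, compared in citrus and again in vehicle. The question of such a design is which receptors are more abundant in the reporter-positive cells when an odorant is given. Values are log2 expression as deposited, and a difference of 1 is a change by a factor of 2 on that scale.

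The labels were checked against the reporter gene and marker lists. S100a5 averaged 17.43 ± 0.10 in citrus GFP-positive and 15.55 ± 0.10 in citrus GFP-negative cells, and 16.86 ± 0.16 in GFP-positive cells and 14.94 ± 0.13 in GFP-negative cells of vehicle mice (SD, n = 4 each). Omp, a marker of mature OSNs, averaged 19.36 ± 0.07 in citrus GFP-positive and 19.17 ± 0.18 in citrus GFP-negative cells, and 19.37 ± 0.01 in GFP-positive cells and 19.10 ± 0.21 in GFP-negative cells of vehicle mice. It did not pass the test between gates (0.18 and 0.27 log2, adjusted p = 0.398 in citrus and 0.192 in vehicle), while 4 of 15 mature OSN markers were higher in GFP-positive cells in citrus and 5 in vehicle, with 0 lower. The gates also differed in other cells: 14 of 14 measured myeloid and lymphoid markers were lower in GFP-positive cells in both gates, against 10.8% of all tested probe sets in citrus and 9.97% in vehicle. Their mean level per array was 5.29 to 5.69 in citrus GFP-positive and 10.82 to 12.52 in citrus GFP-negative cells, and 5.17 to 5.90 in GFP-positive cells and 11.45 to 12.43 in GFP-negative cells of vehicle mice. In citrus GFP-positive cells 13 of the 14 lay under the background level given below, against 3 in citrus GFP-negative cells, and in vehicle 12 against 3. In citrus and in vehicle, 7 and 6 of 7 microvillous and 6 and 5 of 6 measured globose basal markers (9 listed) were also lower. So were 6 and 6 of 12 immature OSN, 3 and 2 of 9 sustentacular and 3 and 2 of 6 guanylyl cyclase D neuron markers. Many of these were under background even in GFP-negative cells. There 4 and 4 microvillous, 4 and 4 globose basal, 1 and 1 immature OSN, 5 and 4 sustentacular and 3 and 4 guanylyl cyclase D markers were under it on every array. The part of this makeup in the receptor differences below was not tested. The median of each array over all probe sets, averaged by group, moved by -0.33 log2 between gates in citrus and -0.28 in vehicle. The array median of all odorant receptors moved by 0.76 and 0.46 and the array mean of the mature OSN markers by 0.41 and 0.36. These are differences of array levels, unlike the medians of the differences of single probe sets given further below, which can differ in sign.

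Receptor promoters are short and rich in A and T, and sites for homeodomain factors such as Lhx2 and for Olf/Ebf factors are known in them. To show this for receptors whose gates differed most, the 250 bases before the annotated start are printed for those members named below whose gene model spans over 1500 bases, so that it is not confined to the coding sequence. RefSeq windows (GRCm38.p6) matched 107 of the 128 members, but in 68 of them the window begins at the coding start, leaving 39 members with 40 windows. Capitals mark matches to the homeodomain motif TAATNA on either strand.
Olfr77, chr9:19916979-19917228, plus strand: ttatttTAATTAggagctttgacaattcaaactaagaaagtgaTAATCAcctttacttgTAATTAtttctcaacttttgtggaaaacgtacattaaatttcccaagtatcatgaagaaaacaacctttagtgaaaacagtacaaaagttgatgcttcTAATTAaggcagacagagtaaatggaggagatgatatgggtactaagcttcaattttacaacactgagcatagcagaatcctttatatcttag
Olfr868, chr9:20098376-20098625, plus strand: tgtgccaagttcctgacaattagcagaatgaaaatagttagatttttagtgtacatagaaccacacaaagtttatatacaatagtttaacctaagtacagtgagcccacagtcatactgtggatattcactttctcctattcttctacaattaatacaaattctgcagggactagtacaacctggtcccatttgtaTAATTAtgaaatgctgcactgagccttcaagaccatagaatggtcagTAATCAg
Olfr860, chr9:19849748-19849997, minus strand: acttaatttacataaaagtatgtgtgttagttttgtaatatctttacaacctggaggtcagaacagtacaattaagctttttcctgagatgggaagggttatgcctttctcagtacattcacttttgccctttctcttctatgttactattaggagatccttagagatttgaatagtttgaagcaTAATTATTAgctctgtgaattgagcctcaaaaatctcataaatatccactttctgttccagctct
Olfr910, chr9:38537632-38537881, plus strand: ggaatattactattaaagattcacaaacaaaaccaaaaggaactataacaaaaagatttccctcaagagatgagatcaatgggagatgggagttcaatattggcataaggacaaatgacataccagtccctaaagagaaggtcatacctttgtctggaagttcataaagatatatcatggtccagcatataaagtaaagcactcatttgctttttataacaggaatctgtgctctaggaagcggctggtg
Olfr921, chr9:38772838-38773087, plus strand: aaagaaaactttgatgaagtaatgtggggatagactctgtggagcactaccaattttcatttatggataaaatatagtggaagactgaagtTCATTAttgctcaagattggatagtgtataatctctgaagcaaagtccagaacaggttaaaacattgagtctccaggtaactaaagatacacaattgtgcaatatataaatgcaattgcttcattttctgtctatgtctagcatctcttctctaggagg
Olfr77 and Olfr868, which were lower in GFP-positive cells, held 4 and 2 matches. Olfr860, Olfr910 and Olfr921, which were higher there, held 2, 0 and 1, so receptors with and without a match occurred on the higher side. Over all such windows, TAATNA was in 80.0% of 40 member windows, 64.9% of 211 windows of receptors not on chromosome 9 and 22.9% of 30936 windows of all genes. Of members higher in both gates, 12 of 16 with a window had a match, against 8 of 9 of those lower in both and 7 of 8 of those called in neither gate. The Olf/Ebf motif CCCNNGGG, read on both strands, was in 5.0% of member windows, 7.11% of other receptor windows and 12.2% of all. The median GC content of the windows was 34.4% for members, 36.8% for other receptors and 52.8% for all genes, and was not held equal in these shares. A match is only a run of letters and does not show a bound site.

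Many of these receptors were near the floor of the array. As background served the 95th percentile of the negative-control probes on each array, which ran from 8.75 to 9.71. Of the 128 receptors 61 exceeded it on at least 1 array, 6 on all 16 arrays and 67 on none. On a given array of citrus mice 30 to 43 members exceeded it in GFP-positive cells and 22 to 37 in GFP-negative cells. In vehicle mice the numbers were 23 to 30 in GFP-positive cells and 19 to 32 in GFP-negative cells. A probe set below this level in a group has only an upper bound there. For such members the difference is given as measured and is no measure of size by itself. Beside it stands, as "at least", the smallest log2 difference the background allows, where this is above 0, computed from the mean of the higher group and, for each array of the lower group, the higher of its background level and its own value. These bounds depend on the percentile and carry no sampling error. Over the 46 gate results of the 23 members named by rule there were 21 bounds, of which 2 remained at the 99th percentile of the negative-control probes, both of Olfr972 (0.60 in citrus and 0.062 in vehicle). Of the 67 receptors under background on every array, 43 were nevertheless called between gates. The like share among all probe sets or other receptors is not given here, so this count is not shown to be particular to the members. Receptors under background on every array are only counted here, apart from those that fall in the runs and families below.

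The 5 members with the highest mean signal were Olfr24, Olfr835, Olfr873, Olfr893 and Olfr968, all above background on all 16 arrays. Signals of different probe sets are not comparable as amounts of mRNA. Olfr24 read 13.34, 13.24, 14.89 and 13.46 in citrus GFP-positive and 14.01, 12.59, 12.88 and 12.69 in citrus GFP-negative cells. In vehicle it read 13.07, 13.52, 14.52 and 13.37 in GFP-positive cells and 13.55, 12.96, 13.59 and 12.41 in GFP-negative cells. The gates overlapped under both stimuli, and the difference did not pass the test (0.69 ± 0.41 log2 in citrus, adjusted p = 0.267, and 0.49 ± 0.41 in vehicle, adjusted p = 0.445).
Olfr835 read 13.68, 13.99, 13.48 and 13.85 in citrus GFP-positive and 12.13, 11.40, 11.32 and 10.89 in citrus GFP-negative cells, and 13.45, 14.58, 12.99 and 13.88 in vehicle GFP-positive against 11.72, 11.28, 11.26 and 11.15 in vehicle GFP-negative cells. Every GFP-positive array lay above every GFP-negative one, and Olfr835 rose by 2.32 ± 0.29 log2 in citrus (adjusted p = 1.09e-05) and 2.37 ± 0.29 in vehicle (adjusted p = 9.65e-06). Olfr893 rose by 2.49 ± 0.26 and 2.12 ± 0.26 log2 and Olfr873 by 1.08 ± 0.29 and 0.95 ± 0.29. Olfr968 rose by 1.39 ± 0.39 log2 in citrus (adjusted p = 0.017). In vehicle its groups overlapped (1.04 ± 0.39, adjusted p = 0.0705), and the calls of Olfr873 and Olfr968 were lost when arrays were centred on the receptors or on the mature OSN markers. The call of Olfr873 was also lost without citrus replicate 3 or 4 (adjusted p = 0.0641 and 0.0862) and without vehicle replicate 2 or 4 (0.141 and 0.15), and that of Olfr968 without citrus replicate 2 or 4 (0.136 and 0.0949). In vehicle Olfr968 passed without vehicle replicate 1 or 3 (adjusted p = 0.025 and 0.0359).

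Between the gates, more members were higher than lower in GFP-positive cells, and the largest differences were falls. In citrus 59 of the 128 receptors were higher in GFP-positive than in GFP-negative cells, 25 were lower and 44 passed in neither direction. That is 46.1% higher and 19.5% lower, against 7.44% and 10.8% of all tested probe sets (18.2% in either direction). In vehicle 56 were higher, 24 lower and 48 neither, or 43.8% and 18.8%, against 9.05% and 9.97% of all (19.0% in either direction). Members stood close to receptors elsewhere in the genome, of which 42.1% were higher and 19.7% lower in citrus, and 38.2% and 20.7% in vehicle. The median difference was 0.76 log2 in citrus and 0.70 in vehicle for members, 0.74 and 0.55 for other receptors and 0.13 and 0.11 for all probe sets. After each array was set to the median of its receptors, the split was 46 higher and 42 lower in citrus (median -0.0068), and 47 and 30 in vehicle (median 0.24).

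The largest falls were of receptors with signals mostly under background in GFP-positive cells and high levels in GFP-negative cells. Olfr972, of family MOR171 in the distal cluster, read 5.74, 5.33, 7.90 and 5.24 in citrus GFP-positive and 13.79, 13.35, 13.66 and 13.17 in citrus GFP-negative cells. It read 7.43, 5.82, 6.99 and 6.35 in vehicle GFP-positive and 13.50, 13.26, 12.49 and 13.08 in vehicle GFP-negative cells. No GFP-positive array reached background, and all GFP-negative arrays were well above it. The difference was -7.44 ± 0.47 log2 in citrus (adjusted p = 2.67e-09; at least 4.53 log2 lower given the background) and -6.44 ± 0.47 in vehicle (adjusted p = 1.73e-08; at least 3.74 lower).
Olfr878 (MOR163) read 5.37, 4.08, 7.38 and 5.30 in citrus GFP-positive and 12.13, 10.46, 11.59 and 11.34 in citrus GFP-negative cells, and 5.46, 5.52, 6.65 and 4.31 in vehicle GFP-positive against 10.81, 11.71, 11.10 and 10.89 in vehicle GFP-negative cells. The groups lay far apart under both stimuli, at -5.84 ± 0.56 log2 in citrus (at least 2.42 lower) and -5.64 ± 0.56 in vehicle (at least 1.78 lower). Olfr884 (MOR162) differed by -5.67 ± 0.38 and -5.65 ± 0.38 log2, with bounds of 1.21 and 0.63, as its GFP-negative level was close to background.
Olfr829 (MOR147), at the proximal end, fell in citrus and in vehicle, at -4.28 ± 0.48 and -4.66 ± 0.48 log2 as measured (at least 0.79 and 0.84). Olfr868 (MOR145) fell likewise, at -4.20 ± 0.34 log2 in both gates (at least 1.42 and 0.85). Each of these 5 receptors was under background on all 8 GFP-positive arrays and above it on all 8 GFP-negative arrays.

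The largest rises were smaller. Olfr849 (MOR151) read 11.43, 10.84, 10.12 and 10.03 in citrus GFP-positive and 6.37, 6.68, 5.89 and 5.47 in citrus GFP-negative cells, and 11.06, 9.89, 9.76 and 10.79 in vehicle GFP-positive against 6.77, 6.15, 6.58 and 5.13 in vehicle GFP-negative cells. It was above background on all GFP-positive and on no GFP-negative arrays, at 4.50 ± 0.40 log2 in citrus (adjusted p = 1.66e-07; at least 1.66 higher) and 4.22 ± 0.40 in vehicle (adjusted p = 4.64e-07; at least 1.10 higher).
Olfr150 (MOR171) rose by 3.08 ± 0.37 log2 in citrus (at least 1.06) and 3.35 ± 0.37 in vehicle (at least 1.06). Olfr910 (MOR165) rose by 2.40 ± 0.32 log2 (at least 0.49) and 3.20 ± 0.32 (at least 0.82). Both were above background on all 8 GFP-positive and on no GFP-negative arrays.
The other large rises came from receptors that even GFP-positive cells barely showed. As measured, Olfr860 (MOR146) was 3.69 ± 0.45 log2 higher in citrus (at least 0.25) and 3.99 ± 0.45 in vehicle, and exceeded background on 3 and 2 of 4 GFP-positive arrays. Olfr914 (MOR165) was 3.47 ± 0.55 (at least 0.69) and 2.56 ± 0.55 higher, with 4 and 2 such arrays, and Olfr921 (MOR165) 3.76 ± 0.35 (at least 0.058) and 2.73 ± 0.35 higher, with 3 and 0. Olfr846 (MOR149) was 2.47 ± 0.47 (at least 0.51) and 2.93 ± 0.47 log2 higher, with 3 and 1 of 4. In vehicle the background left no bound above 0 for these 4. Olfr970 (MOR171) and Olfr981 (MOR223) were 3.98 ± 0.36 and 3.22 ± 0.27 log2 higher in citrus and 2.66 ± 0.36 and 3.84 ± 0.27 in vehicle, but each exceeded background on only 1 of 16 arrays, and neither had a bound above 0. All of these differences passed the test.

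**Figure D1:**
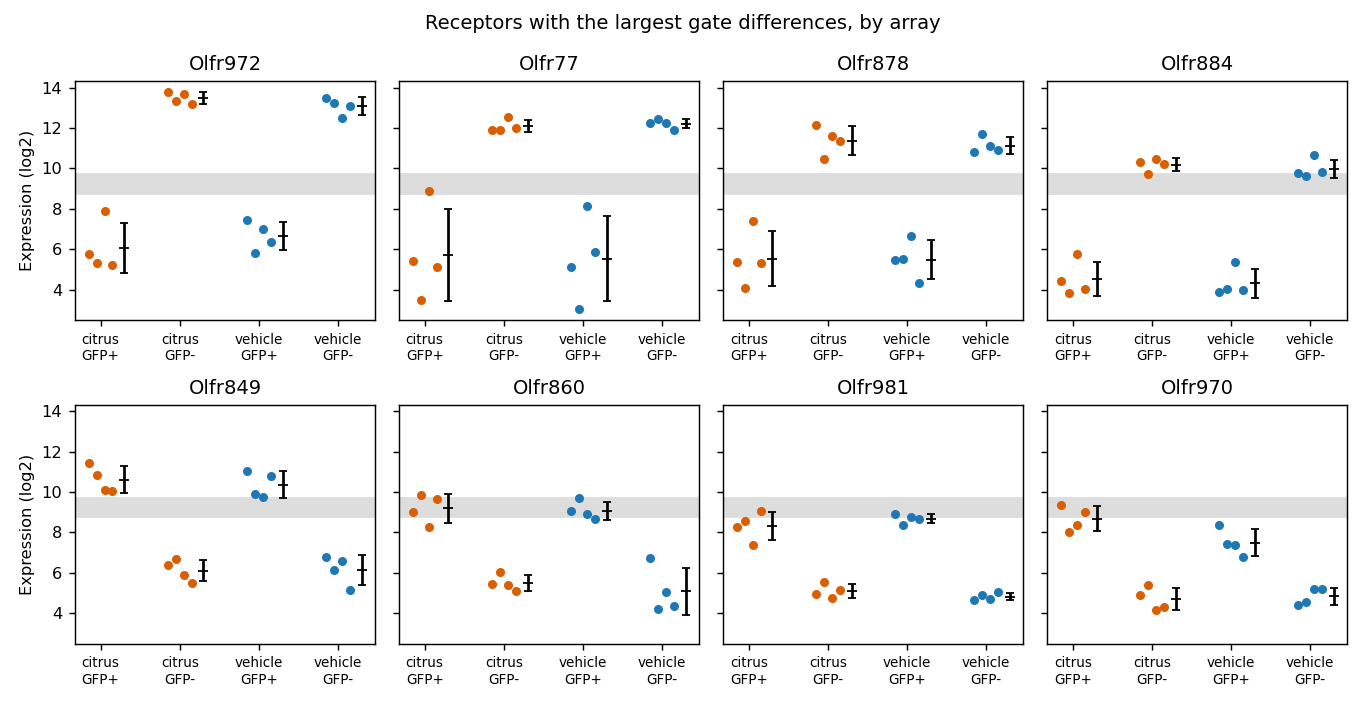
Log2 expression of 8 receptors on each array, with citrus in orange and vehicle in blue, GFP-positive left of GFP-negative. Points are arrays, black bars the group mean and SD (n = 4), and the grey band the range of the background level, 8.75 to 9.71. In the upper row GFP-positive points lie under the band except for 1 array of Olfr77, while in the lower row GFP-negative points lie under it.

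Citrus and vehicle mice gave nearly the same pattern of gate differences, measured on separate arrays. Of the 128 receptors 52 were higher in GFP-positive than in GFP-negative cells under both stimuli, 22 were lower under both and 0 were called in opposite directions. Another 7 higher and 3 lower calls were made in citrus with no call in vehicle, 4 higher and 2 lower calls in vehicle with none in citrus, and 38 receptors had neither. The sign was the same for 115 and opposite for 13. Across the 128 receptors, which are not independent replicates and share the sort and the array design, the gate difference in citrus and that in vehicle had a Pearson r of 0.98. Joint counts and this r are not given here for all probe sets or for receptors elsewhere. The likeness of the 2 stimuli is therefore not shown to be particular to these receptors.

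**Figure D2:**
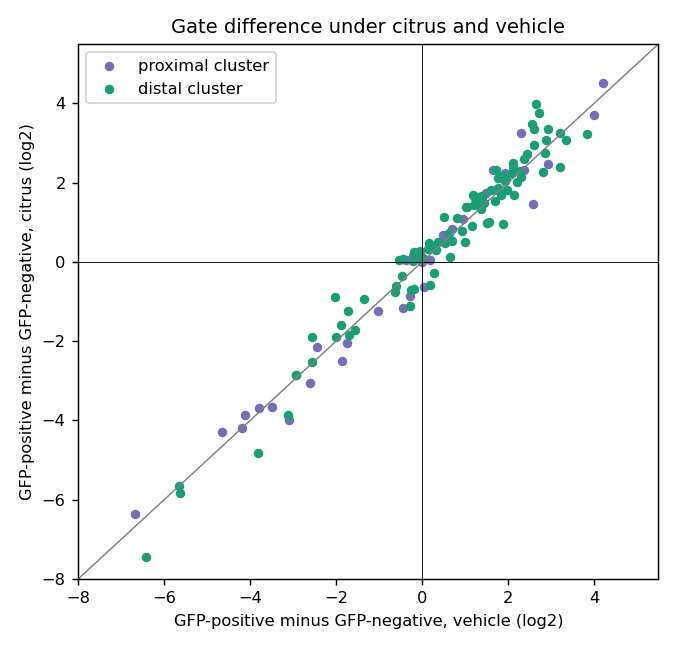
Gate difference (GFP-positive minus GFP-negative, log2) of each of the 128 receptors in citrus on the vertical axis and in vehicle on the horizontal axis, coloured by gene cluster, with the line of equal values in grey. The points follow the line from Olfr972 (-7.44 in citrus, -6.44 in vehicle) to Olfr849 (4.50 in citrus, 4.22 in vehicle).

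The clusters differed in how their receptors divided between the gates. In the proximal cluster 11 of 35 receptors were higher and 12 lower in citrus, with a median difference of 0.056 log2, and 11 were higher and 11 lower in vehicle (median -0.042). In the distal cluster 48 of 93 were higher and 13 lower in citrus (median 1.10), and 45 were higher and 13 lower in vehicle (median 1.16). With that centring on the receptors, the proximal counts in citrus became 9 higher and 18 lower (median -0.71) and the distal counts 37 and 24 (median 0.33). In vehicle they became 8 and 13 (median -0.50) and 39 and 17 (median 0.70). The difference between the clusters is a description and was not tested. As 67 of the 128 members were under background on every array, the cluster medians are no measure of size.

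**Figure D3:**
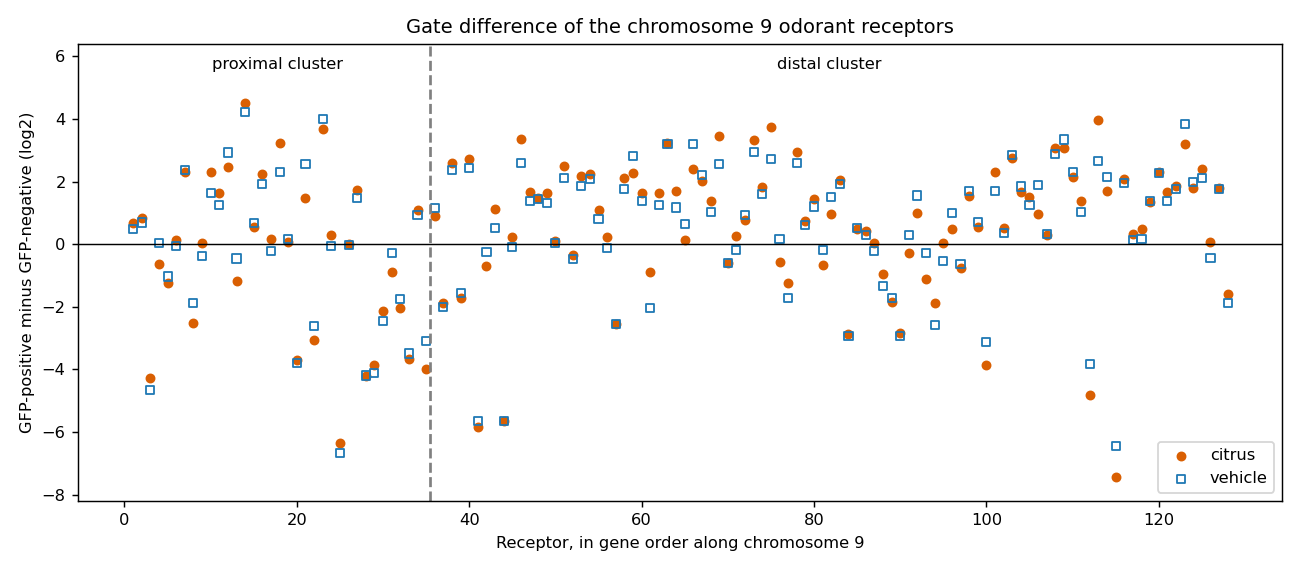
Gate difference (GFP-positive minus GFP-negative, log2) of the 128 receptors in gene order along the chromosome, citrus as filled circles and vehicle as open squares, with a dashed line between the proximal and distal clusters. Of 93 distal receptors 48 were called higher in citrus, against 11 of 35 proximal ones, and both clusters hold receptors below -5.

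By family, 9 families had at least 5 members and held 92 of the 128 receptors. All 5 members of MOR223 were higher in both gates (median 1.86 log2 in citrus and 1.98 in vehicle), also with arrays centred on the receptors (medians 1.10 and 1.52). Among them Olfr979 and Olfr980 were under background on every array, and Olfr981 exceeded it on 1 vehicle GFP-positive array alone. Other families also hold members under background on every array, so the family medians are no measure of size. Of the 7 MOR165 members 6 were higher and 0 lower in each gate (medians 2.01 and 2.21), and with receptor centring 6 were higher in citrus and 5 in vehicle. MOR224 had 5 of 10 members higher in citrus and 6 in vehicle, with 0 lower, and MOR170 had 5 and 4 of 9 higher and 0 lower, though with receptor centring 2 and 1 MOR170 members were called lower. With that centring 4 and 5 MOR224 members were higher and 0 lower. MOR162 had 7 and 6 of 10 members higher and 1 lower, which was Olfr884, and with receptor centring 4 higher and 2 lower in citrus and 4 and 1 in vehicle.
MOR145 ran the other way, with 1 of 6 members higher and 4 lower in each gate (medians -2.95 and -2.42). Its higher member, Olfr873, lost that call with receptor centring, as described above. MOR161 and MOR146 were divided, with 2 members higher and 2 lower in each gate. With receptor centring MOR161 had 2 higher and 3 lower and MOR146 1 higher and 2 lower in citrus. In vehicle both stayed at 2 higher and 2 lower. In MOR171, the largest family with 34 members, 14 were higher and 9 lower in citrus (median 0.49) and 14 higher and 7 lower in vehicle (median 0.57). With receptor centring its median in citrus was -0.28, with 9 members higher and 12 lower. The MOR171 members spanned the widest range, from Olfr972 at -7.44 to Olfr970 at 3.98 log2 in citrus.

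**Figure D4:**
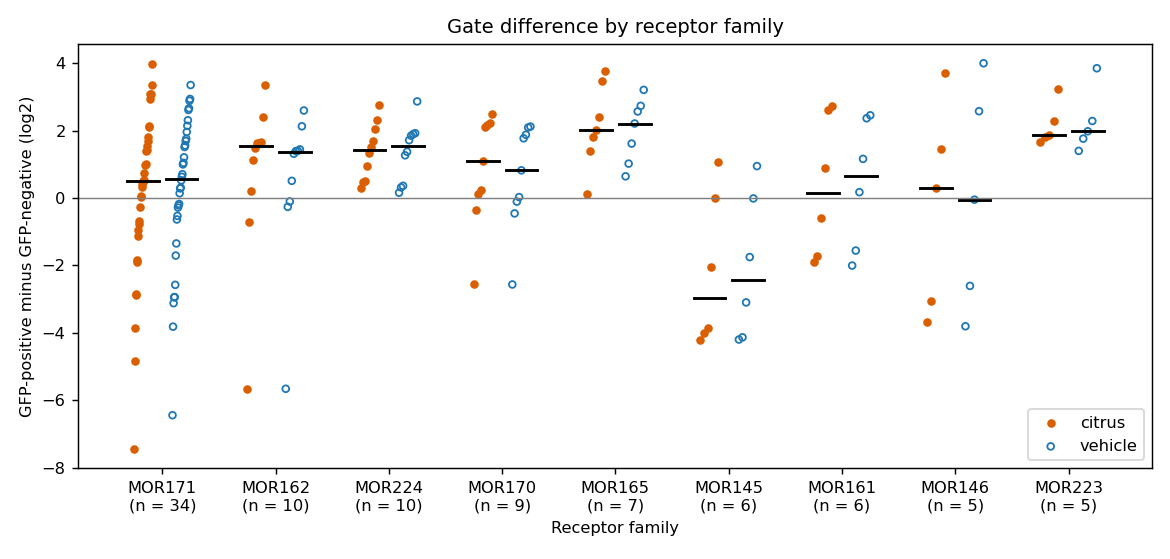
Gate difference (GFP-positive minus GFP-negative, log2) of the members of the 9 families with at least 5 members, citrus filled and vehicle open, with the median as a black bar. All 5 MOR223 members lie above 0 under both stimuli, 4 of 6 MOR145 members were called lower, and MOR171 spans -7.44 to 3.98 in citrus. Members under background on every array are included.

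Runs of neighbours in gene order were called alike in some places. The longest run higher in both gates was 6 receptors, Olfr978 to Olfr983, with a median difference of 2.08 log2 in citrus and 2.05 in vehicle. It holds the 5 MOR223 receptors and Olfr983 of MOR162, and all 6 calls held with receptor centring. In this run Olfr979 and Olfr980 were under background on every array. Olfr910, Olfr912, Olfr913 and Olfr914 of MOR165 formed a run of 4 (medians 2.21 and 2.39), and Olfr868, Olfr869 and Olfr870 a run of 3 lower in both gates (medians -3.86 and -4.13). With receptor centring the MOR165 run kept all 4 calls in citrus and 3 of 4 in vehicle. Olfr912 and Olfr870 were likewise under background on every array, so the medians of these runs are no measure of size.
Over the whole chromosome, however, neighbours were about as unlike as any other pair. The gate differences of the 126 pairs of adjacent receptors were apart by a median of 1.94 log2 in citrus and 1.97 in vehicle, against 1.79 and 1.72 over all 4873 pairs within a cluster. Members under background on every array are included, so these distances are no measure of size. The sign was shared by 60.3% of adjacent pairs in citrus and 55.6% in vehicle, against 59.8% and 56.4% of all pairs. Olfr970 and Olfr972, both MOR171 and separated by Olfr971 alone, were among the highest and the lowest of the distal cluster.

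Citrus against vehicle passed the test for none of the receptors. By limma with Benjamini-Hochberg adjustment, 0 of 128 members were called in GFP-positive cells (0.0204% of all probe sets were), 0 in GFP-negative cells (0.0153% of all) and 0 for the effect of citrus on the gate difference (0% of all). At an unadjusted p under 0.05, 5 members were higher and 0 lower in citrus GFP-positive than in vehicle GFP-positive cells, 2 higher and 0 lower in GFP-negative cells, and 2 higher and 0 lower for the gate difference. Over all probe sets 4.06%, 5.88% and 3.69% reached that level in either direction. The alternatives tried, array weights and blocks included, also gave 0 adjusted calls.
The limits of these 0 calls are wide. The 95% interval of a difference between citrus and vehicle had a half-width of 0.34 to 2.76 log2 over the members, with a median of 0.77, and 0.49 to 3.91 (median 1.08) for the gate difference. The estimates ran from -0.72 to 1.20 log2 in GFP-positive cells (85 above 0, 43 below) and from -0.63 to 1.04 in GFP-negative cells (73 above, 55 below). The difference of gate differences ran from -1.11 to 1.33 (77 above, 51 below).

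Olfr970 had the smallest p of the members in GFP-positive cells and for the gate difference. It read 9.37, 8.01, 8.35 and 9.01 in citrus GFP-positive and 8.38, 7.43, 7.38 and 6.77 in vehicle GFP-positive cells. These ranges overlap, and just 1 of the 8 values was above its array's background. Its difference was 1.20 ± 0.36 log2 (limma, adjusted p = 0.999). In GFP-negative cells it read 4.92, 5.39, 4.17 and 4.32 in citrus and 4.41, 4.55, 5.18 and 5.19 in vehicle, and its gate difference was 1.33 ± 0.50 log2 larger in citrus (limma, adjusted p = 0.999).
Olfr851 (MOR155), above background on all GFP-positive arrays, read 11.62, 11.05, 11.38 and 11.23 in citrus GFP-positive and 10.52, 11.01, 10.01 and 11.06 in vehicle GFP-positive cells. The ranges met at 1 array, with a difference of 0.67 ± 0.29 log2 (limma, adjusted p = 0.999). Olfr910 read 9.37, 10.20, 8.76 and 9.42 in citrus GFP-positive and 9.84, 10.73, 9.83 and 10.00 in vehicle GFP-positive cells, at -0.66 ± 0.32 log2 (limma, adjusted p = 0.999), and its gate difference was -0.80 ± 0.46 in citrus relative to vehicle (adjusted p = 0.999). In GFP-negative cells the smallest p among members above background on at least 1 array belonged to Olfr963 (0.84 ± 0.44 log2), Olfr921 (-0.60 ± 0.35) and Olfr846 (0.68 ± 0.47), with adjusted p of 0.862, 0.871 and 0.882 and all GFP-negative values under background.
Olfr913 and Olfr961, known as mouse receptors that respond to eugenol, were added after their values were seen. Olfr913 averaged 10.89 ± 0.42 in citrus GFP-positive and 9.50 ± 0.45 in citrus GFP-negative cells, and 10.46 ± 0.14 in GFP-positive cells and 9.44 ± 0.50 in GFP-negative cells of vehicle mice (SD, n = 4 each). It rose between gates in citrus (1.39 ± 0.26, adjusted p = 0.000779) and vehicle (1.02 ± 0.26, adjusted p = 0.0105), and the gate difference was not shown to differ between stimuli (0.37 ± 0.37, adjusted p = 0.999). With receptor centring 3 of the 4 members of its run were called in vehicle, Olfr910 and Olfr914 among them. The vehicle rise of Olfr913 is therefore not shown to hold with that centring. Olfr961 rose between gates in citrus (1.51 ± 0.45, adjusted p = 0.0242) and did not pass in vehicle (1.26 ± 0.45, adjusted p = 0.0567), with a difference between those of 0.24 ± 0.63 (adjusted p = 0.999). Its bound of 0.28 in vehicle carries no sampling error, so no rise is established there.

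Replicates differed more for receptors than for other genes, and for some receptors the arrays of the same number stood apart under both stimuli. The pooled SD within groups had a median of 0.59 log2 over the members and 0.59 over the other receptors, against 0.29 over all probe sets. It was largest for Olfr969 (2.20), Olfr250 (1.97) and Olfr77 (1.56). Olfr969 (MOR171) read 6.98, 3.95, 11.23 and 4.41 in citrus GFP-positive and 11.64, 10.92, 11.72 and 11.56 in citrus GFP-negative cells, and 7.12, 4.43, 11.18 and 6.71 in vehicle GFP-positive against 10.94, 10.56, 11.53 and 11.66 in vehicle GFP-negative cells. In replicate 3 of both stimuli the GFP-positive level was within the GFP-negative range, while the other 6 GFP-positive arrays were far below it. Just 1 of 4 GFP-positive arrays of each stimulus was above background. Its gate difference was -4.82 ± 1.31 log2 in citrus (adjusted p = 0.0143) and -3.81 ± 1.31 in vehicle (adjusted p = 0.0507). Without replicate 3 of the stimulus in question it was -6.26 (adjusted p = 0.00112) and -4.97 (adjusted p = 0.0174), and without citrus replicate 2 or 4 the citrus call was lost (adjusted p = 0.0801 and 0.105). The vehicle difference also passed without citrus replicate 2 or 3 (adjusted p = 0.0495 and 0.014), which share the estimate of the spread, and with the pool as a replicate block (adjusted p = 0.0252).
Olfr250 (MOR170) read 8.98, 5.93, 13.02 and 6.60 in citrus GFP-positive and 6.92, 7.31, 11.47 and 7.53 in vehicle GFP-positive cells, again with replicate 3 high in both. In GFP-negative cells it read 11.60, 10.49, 11.99 and 10.59 in citrus and 10.59, 10.82, 11.46 and 10.61 in vehicle, and neither gate passed the test (-2.54 ± 1.17 and -2.56 ± 1.17, adjusted p = 0.152 and 0.144), while both did with the pool as a replicate block (adjusted p = 0.0483 and 0.0452). Olfr77 (MOR143) read 5.42, 3.47, 8.88 and 5.14 in citrus GFP-positive and 11.89, 11.91, 12.54 and 12.02 in citrus GFP-negative cells. In vehicle it read 5.12, 3.03, 8.13 and 5.84 in GFP-positive cells and 12.22, 12.46, 12.27 and 11.89 in GFP-negative cells. Replicate 3 was highest and replicate 2 lowest among GFP-positive cells of both stimuli, yet the gates did not overlap and Olfr77 fell by 6.36 ± 0.93 log2 in citrus (adjusted p = 5.93e-05; 1 of 4 GFP-positive arrays above background) and by 6.68 ± 0.93 in vehicle (adjusted p = 4.06e-05; at least 2.86 lower).

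**Figure D5:**
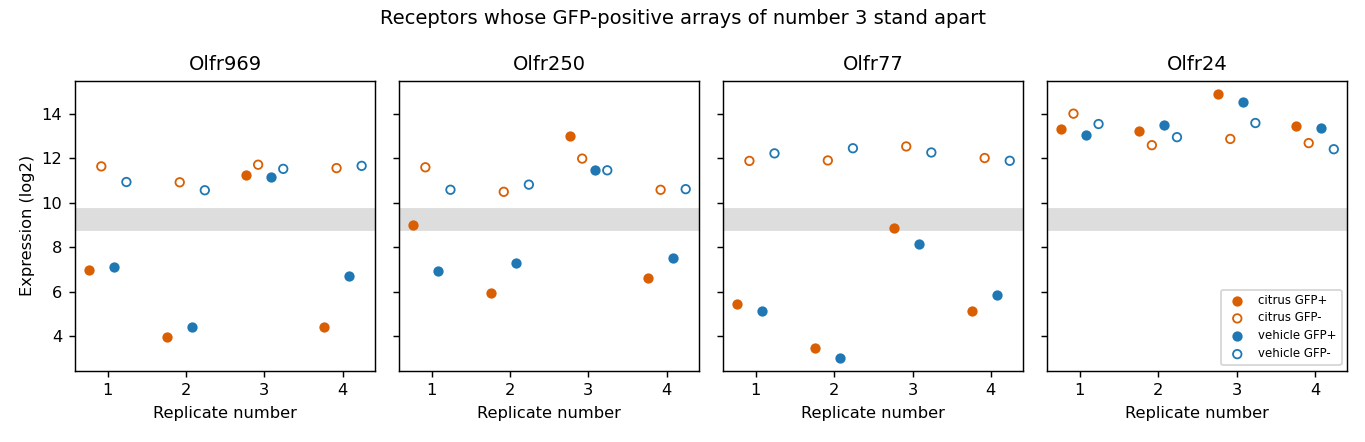
Log2 expression of 4 receptors by replicate number, citrus in orange and vehicle in blue, GFP-positive filled and GFP-negative open, with the range of the background level in grey. For Olfr969, Olfr250, Olfr77 and Olfr24 the GFP-positive arrays of replicate 3 are the highest of their groups under both stimuli, as with Olfr969 at 11.23 in citrus and 11.18 in vehicle.

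Arrays of the same number and gate were set against the mean of the other 3 arrays of their group. Counted over all members, 5 receptors had such arrays more than 2 log2 from that mean, the same way in citrus and vehicle. Of all tested probe sets 0.470% did (92), 52 of them receptors not on chromosome 9. The 5 were Olfr969, Olfr250, Olfr77, Olfr923 and Olfr937, chosen by these values, and all 5 stood apart upward in GFP-positive replicate 3. By this measure Olfr77 and Olfr969 also stood apart downward in replicate 2, but their high replicate 3 raises the mean used there. In citrus GFP-positive cells Olfr969 read 3.95 in replicate 2 and 4.41 in replicate 4, so a single array can lie close to it. Of the 92 probe sets 55 stood apart in that same replicate and gate, 42 of them receptors elsewhere. Across the 128 receptors, the deviations of a GFP-positive array from its group mean correlated between citrus and vehicle arrays of the same number at 0.69, 0.60, 0.71 and 0.26 for replicates 1 to 4, and at 0.29, 0.12, 0.13 and 0.19 in GFP-negative cells, as a description. What the numbers share between citrus and vehicle is not stated in the labels, and the part of a shared day, litter or sort in this was not tested.

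Genes that work with the receptors were set against the shares of all probe sets, 7.44% higher and 10.8% lower in citrus and 9.05% and 9.97% in vehicle. Of the 19 measured genes for olfactory transduction and receptor trafficking, 6 were higher and 2 lower in citrus GFP-positive than GFP-negative cells (median 0.39 log2), and 4 higher and 1 lower in vehicle (median 0.24), or 31.6% higher in citrus and 21.1% in vehicle. The lower genes were Camk2b and Grk3 in citrus and Grk3 in vehicle, both above background on 0 of 16 arrays. Pde1c, a phosphodiesterase of cilia, rose by 0.95 ± 0.16 log2 in citrus and 0.95 in vehicle (adjusted p = 0.000244 and 0.000279), and Ano2, the calcium-activated chloride channel, by 0.72 ± 0.13 and 0.64 (adjusted p = 0.000392 and 0.00129). Rtp2, which brings receptors to the cell surface, rose by 0.55 and 0.75 (adjusted p = 0.03 and 0.00437). Of 14 genes tied to receptor choice 0 were higher and 2 were lower in citrus, and 0 were higher and 1 lower in vehicle, so the shares lower (14.3% and 7.14%) were near that of all probe sets. Lbr, the lamin B receptor whose loss permits the clustering of receptor genes in OSN nuclei, fell by 1.90 ± 0.28 log2 in citrus (adjusted p = 7.86e-05) and by 1.63 in vehicle (adjusted p = 0.000435). Immune cells express Lbr as well, and the part of such cells in this fall was not tested. Of 6 genes for the zones of the epithelium Ncam2 was higher in citrus (0.55, adjusted p = 0.0336) and Nfia lower in vehicle (-0.87, adjusted p = 0.0146).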

How the data were processed

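Sorted olfactory mucosa cells were measured on 16 Clariom S mouse arrays. The authors deposited a table of log2 expression with 28846 probe sets, of which 6640 are controls. Per the submitters' processing notes, Affymetrix Expression Console was used. The software's version is not given in the sources used here, nor is the genome build. A label names a gene-level SST-RMA signal, whose transformation can stretch the scale. Values were used as deposited. Arrays give signal and no read depth, and precision is limited by 4 arrays per group.

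The 19572 probe sets with 1 symbol in the platform annotation were tested, and 128 of 128 members matched a gene table by Entrez identifier, which changed 0 symbols. Gene order, gene clusters and MOR families came from that table. The test was limma 3.58.1 (lmFit, eBayes, two-sided) under R 4.3.3, with 1 mean per group over all arrays, Benjamini-Hochberg adjustment over all 19572 and a threshold of 0.05. Errors beside differences are standard errors of this model, and p-values reflect how far pools differ. The fit was also run on simulated data with independent noise on each array. Those data hold no deviation shared by a pool or a replicate number, so they cannot show how such sharing affects the p-values. Figures were drawn with matplotlib 3.10.9.

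The members and lists were chosen with earlier results of these data known. Named members were up to 6 per gate and direction past the threshold and alike in all 4 pools, the 3 with the smallest p where citrus and vehicle were compared, the 5 with the highest mean and the extremes of each cluster, 23 in all and all above background on at least 1 array, since the others were only counted, apart from those in runs and families. From lists, up to 4 genes past the threshold were named. Olfr250, Olfr923, Olfr937, Olfr913, Olfr961 and the members of runs were named after their values were seen. A part of the rule on pairs with alike proteins was not analysed here.

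The 24 mice make 8 pools of 3, so GFP-positive and GFP-negative arrays of the same stimulus and number were taken as the same mice, although no label says so. After removal of group means such arrays correlated at 0.080 to 0.242 in citrus and 0.075 to 0.275 in vehicle over all probe sets. Labels give all arrays the same code, and so no batch was tested. Alternatives were other centrings of the arrays, a filter on low values, other probe sets, priors and weights, blocks, and each pool left out.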

Additional observations from a re-analysis of the deposited data

Results flagged for a closer look

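Of 92 groups of 4 arrays checked for the 23 named members, 3 held an array far from the other 3, while chance flags about 1 in 20 groups. Olfr24 read 14.89 in citrus GFP-positive replicate 3, against 13.24 to 13.46 in the other 3 arrays. Olfr884 read 5.38 in vehicle GFP-positive replicate 3, against 3.88 to 4.02, all under background. Olfr893 read 9.39 in citrus GFP-negative replicate 4, against 10.26 to 10.34.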

How the results depend on the processing

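Citrus against vehicle, in either gate and for the gate difference, gave 0 members past the threshold in every alternative run, and leaving out each pool in turn gave 0 each time. With the pool as a replicate block, 57 members were higher and 26 lower in citrus and 57 and 26 in vehicle (56 and 25, and 55 and 23, shared with the calls reported), so it moved no count by over 1.5 times. Arrays of citrus and vehicle with the same number correlated at 0.070 to 0.331 in GFP-positive and -0.013 to 0.354 in GFP-negative cells over all probe sets. In each gate 3 of 4 numbers were over 0.1 and 3 of 4 correlated best with their own number, a hint from the data that something was shared, but not every pair was over 0.1 and no label says what a number marks, so the number was not used as a pairing; with that number as a replicate block 0 members passed. Leaving out each pool in turn gave 48 to 59 higher and 21 to 25 lower in citrus, and 48 to 59 higher and 19 to 27 lower in vehicle. With only probe sets above background on at least 4 arrays, which kept 46 members, 24 were higher and 11 lower in citrus and 24 and 11 in vehicle, as fewer were tested. With 4 arrays per group, a member can pass this filter through the group where it is high. The kept members therefore favour gate differences, and these counts are no support for the calls. The share of all probe sets called under this filter is not given here. With arrays centred on all receptors 42 were lower in citrus, the median difference was -0.0068 in citrus and 0.24 in vehicle, and Olfr24 turned to -0.075 in citrus, uncalled in either case; the subtraction of 0.76 log2 is the construction of that alternative. At the 75th and 99th percentile of negative-control probes in place of the 95th, 104 and 5 members exceeded background on at least 1 array, and 11 and 4 of the 46 gate results of named members had a bound in place of 21, a count added after seeing the data. At the 75th percentile some arrays of the lower group exceed background, so that no bound applies. Of 41 gate results of named members past the threshold, 5 were lost under at least 1 alternative, those of Olfr969 and Olfr968 in citrus, of Olfr963 in vehicle and of Olfr873 in both. Results that missed the threshold passed it under at least 1 alternative for Olfr24 and Olfr963 in citrus (adjusted p = 0.0402 and 0.0226) and for Olfr968 and Olfr969 in vehicle (lowest adjusted p = 0.0132 and 0.0114). For Olfr963 the adjusted p was 0.0643 and 0.0545 without vehicle replicate 2 and 4. Signals near background limit all these values.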
